A study of Drosophila melanogaster with 3 samples.

Results

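The proteasome subunit genes of Drosophila melanogaster were examined for sites bound by Neu2, a DNA-binding protein with a ZAD domain and zinc fingers. They were chosen by name, as every protein-coding gene of the dm6 annotation whose symbol starts with Prosalpha, Prosbeta, Rpn or Rpt and a number. This gave 48 of the 13945 protein-coding genes on the 6 main chromosome arms. The 48 comprise 32 standard subunit genes and 16 duplicated copies, whose symbols carry R or T after the subunit number.

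The 26S proteasome degrades ubiquitin-tagged proteins. Its core particle is a barrel of alpha rings, which gate entry, and beta rings, of which the subunits beta1, beta2 and beta5 hold the proteolytic sites. The regulatory particle caps the barrel: Rpt ATPases unfold substrates and thread them into the core, and Rpn subunits form the scaffold, bind ubiquitin and remove it. Many of the duplicated copies are expressed mainly in the testis, and the letter T marks some of them.

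The series is a chromatin immunoprecipitation with sequencing of whole embryos of mixed sex, 2 to 4 h old. All 3 libraries, labelled as biological replicates 1 to 3, came from a transgenic line that stably expresses Neu2 with GFP at its C-terminus, and the antibody was against GFP per the description in the labels. Their antibody field names Neu2 instead, so whether untagged Neu2 was also precipitated cannot be told from the labels. The age is that of the source name, since the age field holds a number of hours that no embryo reaches. There was 1 group, so no comparison between conditions was possible, and the labels do not say what drives the fusion protein. A whole-embryo signal cannot tell binding in few cells from weak binding in many.

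Each library had a deposited list of 30000 relaxed calls, in which peaks and background stood together, and the pooled libraries had another list of 30000. The optimal list held 1471 peaks that passed the authors' irreproducible discovery rate (IDR) threshold. These were the 1471 strongest pooled calls, with signals of 88.6 or more. Signal is the authors' value per call, on a scale that differs between lists. A call was assigned to a gene when its summit lay within 1000 bp of one of the gene's transcription start sites (TSSs). Sequencing depth could not be read from the lists, which gave no counts of reads. Offsets from a TSS are negative upstream of it.

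Of the 48 subunit genes, 5 carried an optimal peak (10.4%, 95% Clopper-Pearson interval 3.47 to 22.7), and 8.73% of all protein-coding genes did. The 5 were Rpn5 with a signal of 154, Prosbeta5 with 123, Rpn6 with 119, Rpt5 with 104.7 and Prosbeta1 with 99.3. All were standard subunits. The counts were thus 5 of 32 standard genes (15.6%, interval 5.28 to 32.8) and 0 of 16 duplicated genes (interval 0 to 20.6, or up to 18.8% by a limit of 3 counts). These intervals and limits cover counting error only. The share in the whole set was close to that of all genes.

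**Figure D1:**
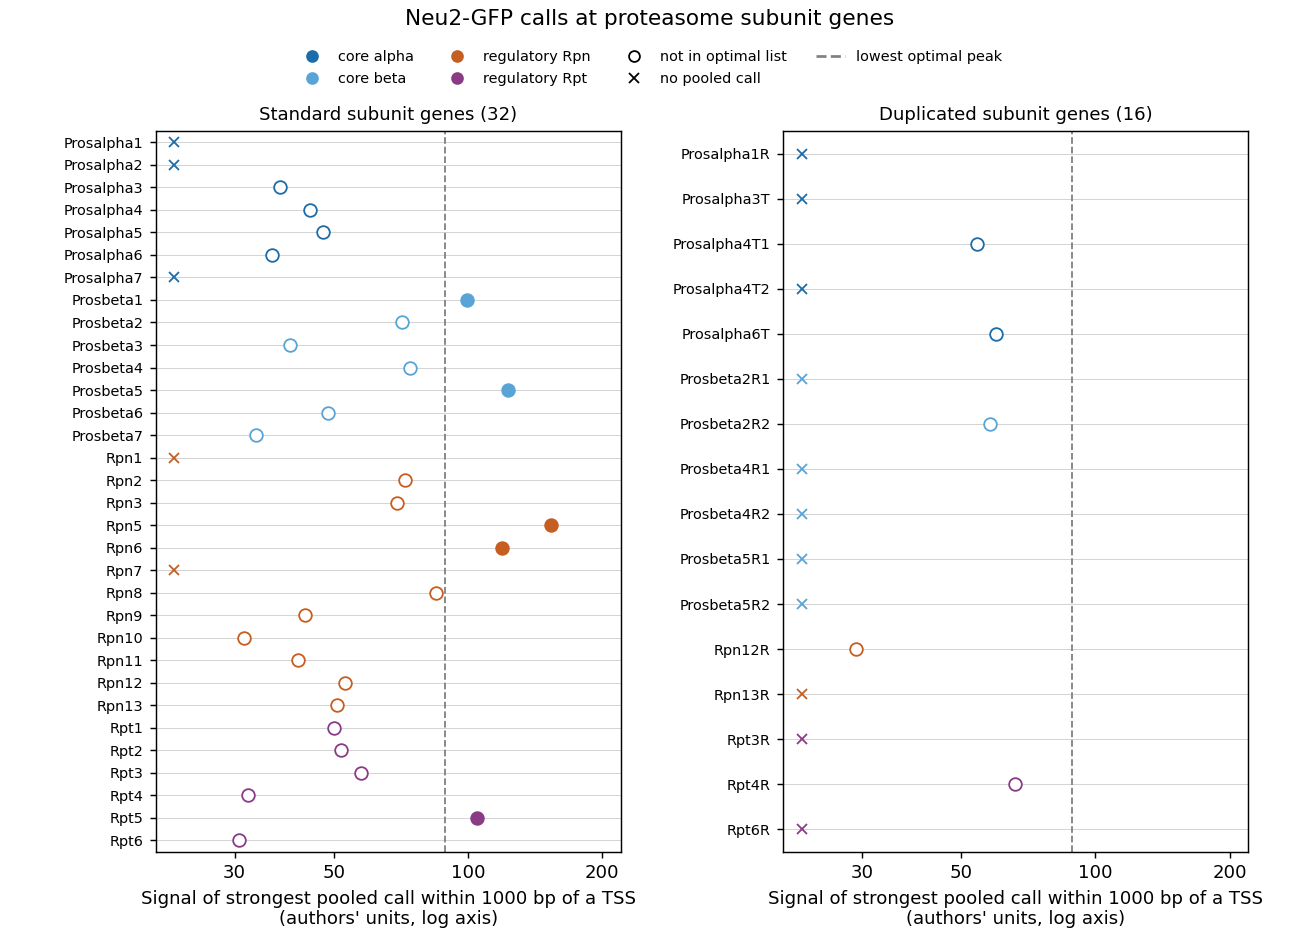
Signal of the strongest pooled call within 1000 bp of a TSS (log axis, authors' units) for each of the 32 standard and 16 duplicated subunit genes. Filled points are optimal peaks, open points are pooled calls below the optimal list, crosses mark genes with no pooled call, and the dashed line is the lowest optimal signal of 88.6. The 5 filled points are all standard genes.

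The 5 peaks had uneven replicate support. A top call was defined as one of a replicate's 1471 strongest calls, to equal the size of the optimal list. Rpn5 had a top call in all 3 replicates, Prosbeta5, Rpn6 and Rpt5 had one in 2, and Prosbeta1 had one in 1. In all, 4 of the 48 subunit genes had a top call in at least 2 replicates, and 7.44% of all protein-coding genes did. When the peaks had to be matched by a top call in both remaining libraries, the count was 2 without replicate 1 (Rpn5 and Prosbeta5), 1 without replicate 2 (Rpn5) and 3 without replicate 3 (Rpn5, Rpn6 and Rpt5). The same requirement left 4.72%, 5.26% and 5.16% of all protein-coding genes.

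Rpn5 (FBgn0028690, 3R from 5789493 to 5791569, plus strand) encodes a scaffold subunit of the lid of the regulatory particle. Its peak spanned 5789023 to 5789462 with the summit at 5789243, ranked 388 in the optimal list. The replicate calls at this summit had signals of 55.7, 57.6 and 40.5 in replicates 1, 2 and 3, with ranks of 494, 465 and 436 in lists of 30000. Relative signal was the call's signal divided by its replicate's median at the optimal peaks (47.0, 47.8 and 33.1), and averaged 1.20 ± 0.0197 (SD, n = 3). The replicates were nearly equal there, each slightly above its own median. The summit lay at -250 bp from the Rpn5 TSS but 141 bp from the nearest TSS of Hat1, which encodes a histone acetyltransferase and is read in the other direction. It fell in an intron of Hat1.

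Sequence is shown for this peak and for the gap between both annotated starts, because the summit lay outside the shared promoter gap, on the Hat1 side. The first stretch is the part of the 300 bp around the summit that lies in no annotated exon and holds the summit, whose base is in capitals. The second is the whole gap of 108 bp, of which 67.6% is A or T, and which holds none of the promoter words counted further on. Both are dm6 sequence read 5′ to 3′ along the Rpn5 strand.
Rpn5 peak, chr3R:5789093-5789328, strand +: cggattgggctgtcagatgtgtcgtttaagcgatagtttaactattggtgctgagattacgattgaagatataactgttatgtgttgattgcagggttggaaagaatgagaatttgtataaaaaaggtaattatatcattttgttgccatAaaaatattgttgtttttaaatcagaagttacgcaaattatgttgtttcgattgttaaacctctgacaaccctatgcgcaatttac
Rpn5 and Hat1, chr3R:5789385-5789492, strand +: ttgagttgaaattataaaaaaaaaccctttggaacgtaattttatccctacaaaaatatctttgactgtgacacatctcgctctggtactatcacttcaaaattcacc

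Rpt5 (FBgn0028684, 3R from 23752876 to 23754623, plus strand), an ATPase of the base, had its peak at 23752692 to 23753131 and its summit at 36 bp, downstream of the TSS, in the Rpt5 5′ UTR. The calls at this summit had signals of 56.6 in replicate 1 and 40.6 in replicate 2, a relative signal of 1.03 ± 0.251 (SD, n = 2). Replicate 3 had no call within 200 bp of the summit. Its strongest call near the gene lay 598 bp downstream of the TSS with a signal of 14.6 and a rank of 11239. The Rpt5 peak was thus present in 2 of 3 replicates. The start of RanBP3, a Ran-binding protein gene, lay 42 bp away on the other strand. The 41 bp between both starts had 46.3% A or T, and are shown as the shortest gap beside an optimal peak.
Rpt5 and RanBP3, chr3R:23752835-23752875, strand +: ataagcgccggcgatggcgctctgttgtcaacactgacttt

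The other lid subunit with a peak was Rpn6 (FBgn0028689, 2R, minus strand), which joins the lid to the core. Its peak spanned 14752194 to 14752633, with the summit at -143 bp from the more downstream start of Rpn6 and 107 bp from the start of ave, a gene of Ras signalling. The summit fell in an intron of Rpn6, whose 5′ end lies farther upstream, at 14752910. Signals were 36.7, 46.1 and 24.1 in replicates 1, 2 and 3, or 0.824 ± 0.123 (SD, n = 3) in relative signal. All 3 values were below the median of their replicate at optimal peaks.

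Both bound core genes encode catalytic subunits. Prosbeta5 (FBgn0029134, 2R, plus strand) carries the chymotrypsin-like site, and its peak at 10819707 to 10820146 had the summit at -51 bp and 43 bp from the TSS of dgo, a planar polarity gene. Signals were 32.4, 43.6 and 52.3 in replicates 1, 2 and 3, with ranks of 1667, 1018 and 204. Replicate 3 stood highest, and the relative signal of 1.06 ± 0.464 (SD, n = 3) had the widest spread of the 5 peaks. Prosbeta1 (FBgn0010590, 2R, minus strand) carries the caspase-like site, and its peak at 16014624 to 16015063 had the summit at -57 bp. This pooled summit was nearer to its own TSS than to that of the exosome gene Rrp42. The replicate 2 and 3 summits were instead nearer to Rrp42, at 27 and 52 bp from its TSS. Signals were 33.3, 34.8 and 32.4, and relative signals averaged 0.805 ± 0.152 (SD, n = 3). The third catalytic gene, Prosbeta2, had no optimal peak.

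Rpn5 exceeded Rpn6 and Prosbeta1 in relative signal in every replicate. The replicate ranges of Prosbeta5 (0.688 to 1.58), Rpt5 (0.849 to 1.20, replicates 1 and 2 only), Rpn6 (0.728 to 0.963) and Prosbeta1 (0.708 to 0.980) overlapped. The order of these 4 thus did not exceed the spread between replicates. Summits also moved between libraries. The replicate summits lay within 37 bp of the pooled one at Prosbeta5 and Prosbeta1, within 46 bp at Rpn6, within 90 bp at Rpt5 and within 107 bp at Rpn5.

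**Figure D2:**
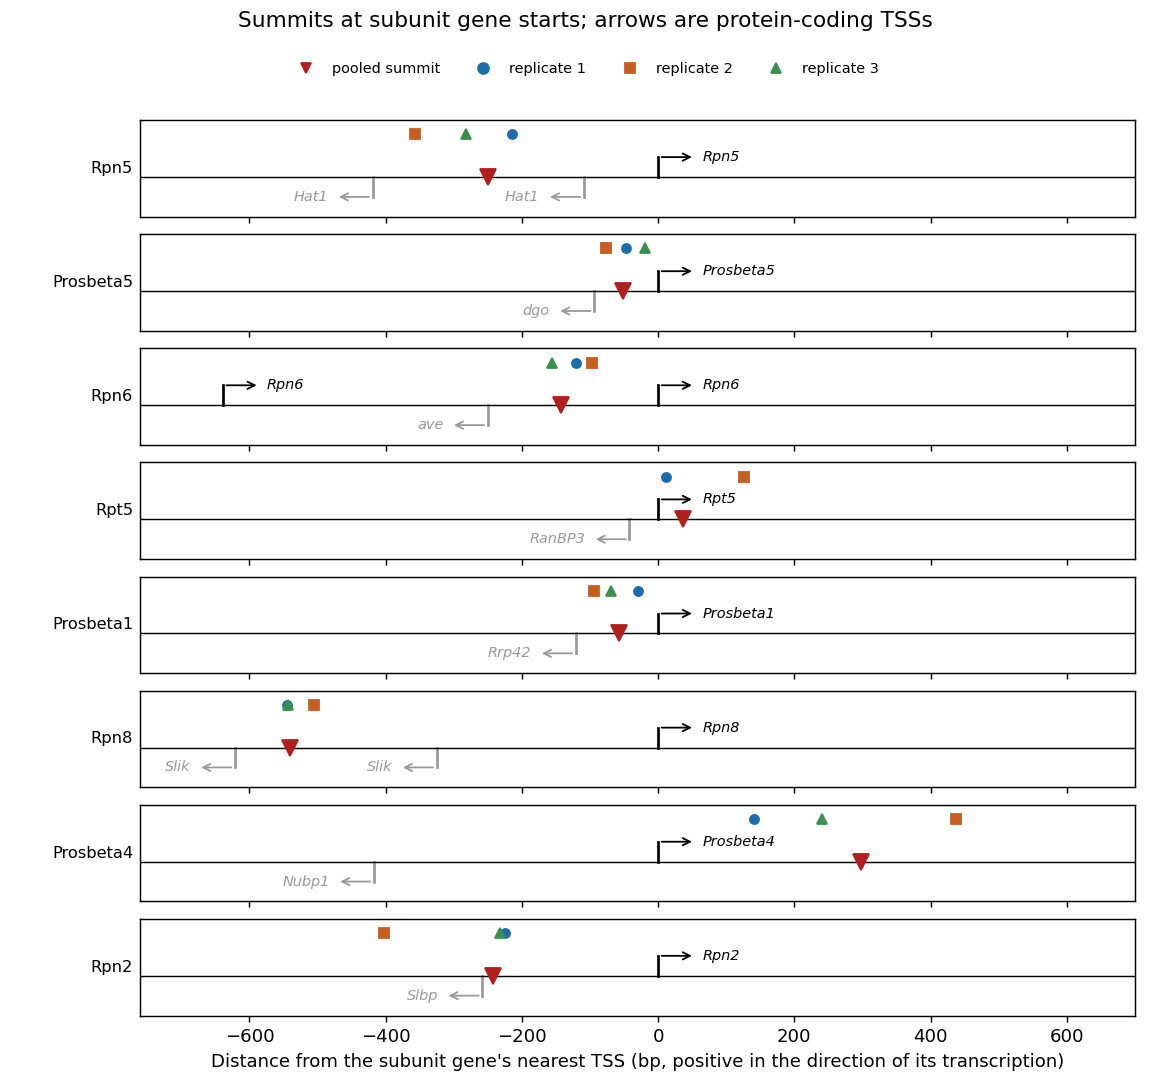
Pooled summits (red triangles) and replicate summits (upper symbols) within 200 bp of them, by distance in bp from the subunit gene's nearest TSS, for the 5 genes with an optimal peak and the 3 next by pooled signal. Arrows are protein-coding TSSs, black for the subunit gene and grey for neighbours. At Prosbeta5, Prosbeta1 and Rpn6 the pooled summit lies between the divergent starts, and at Rpn5 it lies 141 bp into Hat1. For Rpn6 this holds for its more downstream start only.

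No member lay close to the 1000 bp limit. The farthest optimal summit inside it was that of Rpn5 at 250 bp, after Rpn6 at 143 bp and Prosbeta1 at 57 bp. The nearest outside it were 1742 bp from Rpn12, 3549 bp from Prosalpha3 and 3997 bp from Prosbeta2R2. Rpn12 had weaker calls of 17.4, 25.8 and 10.1 in replicates 1, 2 and 3, and Prosalpha3 had 19.7 and 26.7 in replicates 1 and 2 and none in replicate 3. Closer to the signal limit were Rpn8 and Prosbeta4. Rpn8 (FBgn0002787), a lid subunit and partner of the deubiquitinase Rpn11, had a pooled signal of 85.0 at -541 bp and 80 bp from a start of Slik, a kinase gene. Replicates 1, 2 and 3 had 44.3, 22.2 and 22.1 there, averaging 0.691 ± 0.240 (SD, n = 3) in relative signal, with replicate 1 above the others.

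Prosbeta4 (FBgn0032596), a core subunit without proteolytic activity, had a pooled signal of 74.0 inside its coding exon, 298 bp downstream of its TSS. Its replicate signals were 45.8, 26.8 and 20.9, and their summits lay at 141, 437 and 240 bp. The replicate calls thus did not mark a common position. Rpn2 (FBgn0028692), the large scaffold subunit of the base, had a pooled signal of 72.3 with the summit at -243 bp, 15 bp from the TSS of Slbp, the histone mRNA stem-loop binding protein. Replicates gave 32.8, 28.9 and 24.1, and their relative signals of 0.677 ± 0.0643 (SD, n = 3) varied little. Prosbeta2 (FBgn0023174), with the trypsin-like site, had 71.2 at -877 bp, in a coding exon of the mitochondrial ribosomal protein gene mRpL39, with 20.04, 25.9 and 21.1 in the replicates.

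**Figure D3:**
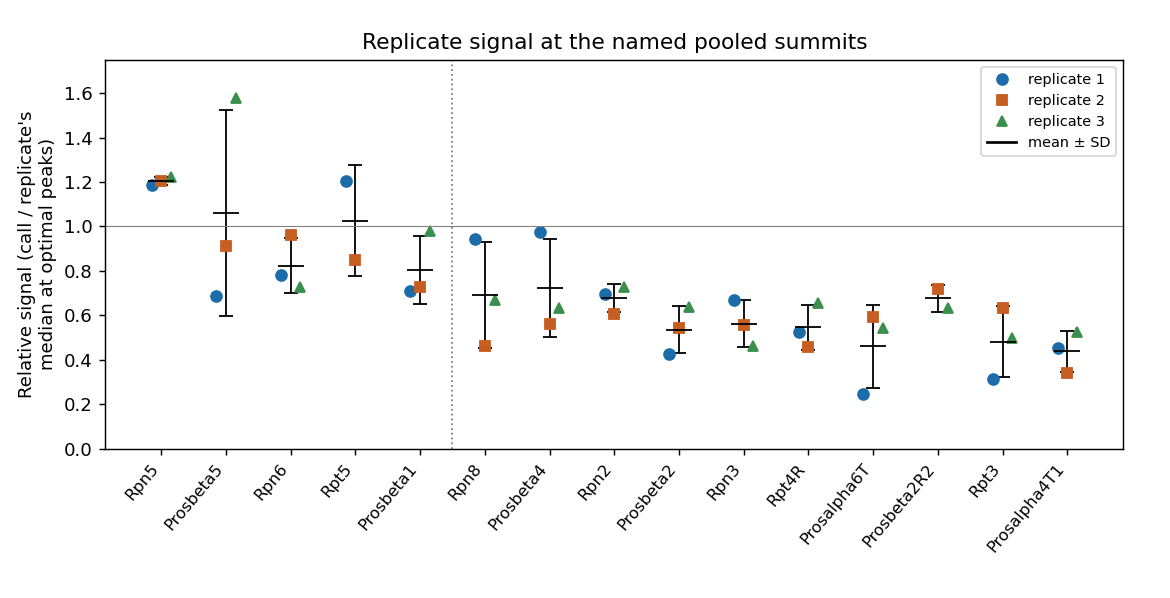
Relative signal (a replicate's call divided by its median at the optimal peaks) at the pooled summits of the 15 named genes, with the mean and SD over the replicates that had a call. The dotted line separates the 5 optimal peaks from the next 10 by pooled signal. The Rpn5 replicates lie together near 1.20, while those of Prosbeta5 run from 0.688 to 1.58.

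By role, 2 of 14 standard core genes (14.3%, interval 1.78 to 42.8) and 3 of 18 standard regulatory genes (16.7%, interval 3.58 to 41.4) carried an optimal peak. The intervals overlap widely. Within the core, 0 of 7 alpha genes (interval 0 to 41.0) and 2 of 7 beta genes (interval 3.67 to 71.0) carried one. The strongest alpha gene call, at Prosalpha5, had a signal of 47.3. Of the regulatory genes, 2 of 12 Rpn genes and 1 of 6 Rpt genes carried one.

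Relaxed calls were common at the standard genes. A pooled call lay within 1000 bp of a TSS in 27 of 32 standard genes (84.4%, interval 67.2 to 94.7), in 32 of all 48 members (66.7%) and in 60.0% of all protein-coding genes. The 5 standard genes without a pooled call were Prosalpha1, Prosalpha2, Prosalpha7, Rpn1 and Rpn7. Prosalpha1 had no call in any list, and Prosalpha7, Rpn7 and Rpn1 each had a call in 1 replicate, with signals of 10.8, 13.5 and 16.6. Prosalpha2 had a weak call in each replicate, at -231 bp with a signal of 12.8, at 170 bp with 23.6 and at 708 bp with 10.3, which are different positions. All 7 beta genes and all 6 Rpt genes had a pooled call, compared with 4 of 7 alpha genes and 10 of 12 Rpn genes.

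The remaining standard genes with a pooled call spanned signals of 30.7 to 69.2. Among alpha genes they were 47.3 at Prosalpha5, 44.2 at Prosalpha4, 37.9 at Prosalpha3 and 36.4 at Prosalpha6, and among the remaining beta genes, none of them proteolytic, 48.6 at Prosbeta6, 39.9 at Prosbeta3 and 33.4 at Prosbeta7. The ubiquitin receptors Rpn13 and Rpn10 had 51.0 and 31.5, the deubiquitinase Rpn11 had 41.6, and the lid scaffold genes Rpn12, Rpn9 and Rpn3 had 53.0, 43.2 and 69.2. The ATPase genes Rpt3, Rpt2, Rpt1, Rpt4 and Rpt6 had 57.7, 51.9, 50.02, 32.2 and 30.7. At the Rpt3 summit, -322 bp from its TSS and 53 bp from that of CG11122, replicates 1, 2 and 3 had 14.7, 30.2 and 16.5, with replicate 2 the highest. The median of the strongest pooled call per protein-coding gene was 46.0, within this span.

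A call in all 3 replicates was present at 23 of 48 members (47.9%, interval 33.3 to 62.8), against 36.8% of all protein-coding genes. Among standard genes it was 19 of 32 (59.4%, interval 40.6 to 76.3). Within 500 bp of a TSS the members' count was 15. The share of all protein-coding genes in that window is not given here, so this count has no background beside it. Over the 32 members with a pooled call, the strongest signal per gene had a median of 52.4, while it was 46.0 over the 8369 such genes in the whole annotation. Relaxed lists mix peaks with background, so these counts describe weak enrichment at most.

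**Figure D4:**
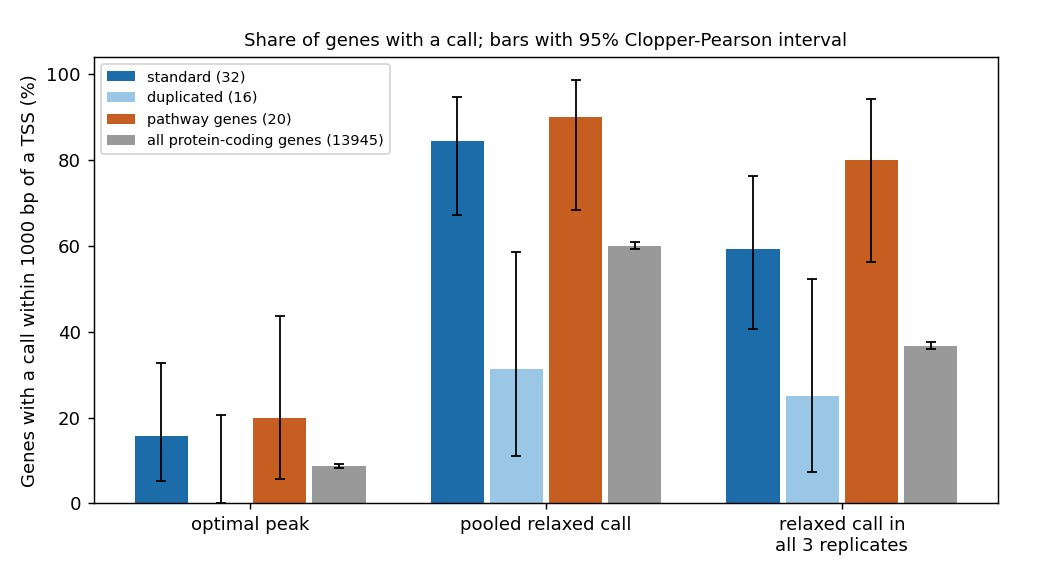
Share of genes (%) with an optimal peak, a pooled relaxed call, or a relaxed call in all 3 replicates within 1000 bp of a TSS, for standard and duplicated subunit genes, other proteasome pathway genes and all protein-coding genes. Error bars are 95% Clopper-Pearson intervals over genes. For pooled calls the standard genes stand at 84.4% and the duplicated genes at 31.2%.

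Among the 16 duplicated genes, 5 had a pooled call (31.2%, interval 11.0 to 58.7), against 60.0% of all protein-coding genes. A call in all 3 replicates was present at 4 (25%, interval 7.27 to 52.4), against 36.8%. No replicate had a call at 8 of them (50%, interval 24.7 to 75.3), against 20.5%, and at 4 there was a call in replicate 1 alone. These were weak, at 10.8 for Prosalpha3T, 10.4 for Prosbeta4R1, 11.95 for Prosbeta4R2 and 11.8 for Prosbeta5R1, near the lowest signal of 10.4 in that list. The 7 with no call in any list (43.8%, against 19.9% of all protein-coding genes) were Prosalpha1R, Prosalpha4T2, Prosbeta2R1, Prosbeta5R2, Rpn13R, Rpt3R and Rpt6R. The strongest was Rpt4R (FBgn0036224), with a pooled signal of 66.0 at -819 bp and 24.6, 21.8 and 21.7 in the replicates. Those replicate summits lay within 60 bp of the pooled one. Prosalpha6T followed with 60.1 at -627 bp, Prosbeta2R2 with 58.2 at -172 bp and 43 bp from the start of CG1116, and Prosalpha4T1 with 54.3 in its coding exon, which lies in an intron of CG42322. At the Prosalpha6T summit the replicates had 11.5, 28.4 and 17.9, and at that of Prosalpha4T1 21.3, 16.2 and 17.3. Prosbeta2R2 had 34.4 and 20.9 in replicates 2 and 3, while replicate 1 had no call within 200 bp of the summit. Rpn12R had a pooled signal of 29.1 at -908 bp, nearer to the homeobox gene ind.

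Standard and duplicated copies of a subunit did not always rank alike. Prosbeta5 had an optimal peak, whereas Prosbeta5R1 and Prosbeta5R2 had no pooled call, and Prosbeta4 had 74.0 whereas Prosbeta4R1 and Prosbeta4R2 had none. The standard copy was also higher for Prosalpha3 (37.9), Rpn13 (51.0), Rpt3 (57.7) and Rpt6 (30.7), whose duplicated copies had no pooled call. Prosbeta2 had 71.2, against 58.2 at Prosbeta2R2 and no pooled call at Prosbeta2R1, and Rpn12 had 53.0 against 29.1 at Rpn12R. Neither Prosalpha1 nor Prosalpha1R had a call. In 3 families the order was the other way. Rpt4R had 66.0 and Rpt4 32.2, and in replicate 2 Rpt4 had no call. Prosalpha6T had 60.1 and Prosalpha6 36.4, but in replicate 1 Prosalpha6 was higher, with 22.8 against 11.5. Prosalpha4T1 had 54.3 and Prosalpha4 44.2, but in replicate 2 Prosalpha4 was higher, with 28.3 against 16.2. The other copy of that subunit, Prosalpha4T2, had no pooled call.

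Neighbouring starts were counted next, since a summit can lie near more than 1 gene. A start of another protein-coding gene could lie head to head within 1000 bp, that is upstream and on the opposite strand. This was so at 21 of 32 standard genes (65.6%), 3 of 16 duplicated genes (18.8%) and 33.2% of all protein-coding genes. The median distance to the nearest start of another gene was 305 bp for standard, 2470.5 bp for duplicated and 1375 bp for all protein-coding genes. All 5 optimal peaks were at head-to-head genes. These were 5 of 24 such members (20.8%, interval 7.13 to 42.2), against 0 of the other 24 (interval 0 to 14.2, or up to 12.5% by a limit of 3 counts). Over all protein-coding genes, 14.7% of head-to-head genes and 5.78% of the rest carried an optimal peak. For pooled calls the shares were 18 of 21 head-to-head standard genes (85.7%, interval 63.7 to 97.0) and 9 of the other 11 (81.8%, interval 48.2 to 97.7). Over all protein-coding genes they were 76.5% of head-to-head genes and 51.8% of the rest. The part of promoter arrangement in the difference between standard and duplicated genes was not tested, nor was that of transcription.

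Because of these neighbours, assignment mattered. When each peak counted only for the gene of its nearest TSS, 2 of the 48 members kept a peak, Prosbeta1 and Rpt5, while 6.22% of all protein-coding genes had one. The peaks of Rpn5, Prosbeta5 and Rpn6 went to Hat1, dgo and ave. This follows the pooled summit, and the nearest gene differed between replicates at 3 of the peaks. At Prosbeta1 the replicate 2 and 3 summits were nearer to Rrp42. At Rpn6 those of replicates 1 and 2 were nearer to Rpn6. At Prosbeta5 the replicate 3 summit was nearer to Prosbeta5, and that of replicate 1 was equally near to both genes. At Rpn5 all 3 replicate summits were nearer to Hat1. The strongest pooled call was nearest to the member itself in 18 of 32 cases and nearer to another gene in 14. For the 19 head-to-head members with a pooled call, the gap was taken between the nearest pair of starts. The strongest summit lay in it in 5, on the member's side in 7 and on the neighbour's side in 7. No such counts over all protein-coding genes stand beside these, so they are not read as particular to the members.

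**Figure D5:**
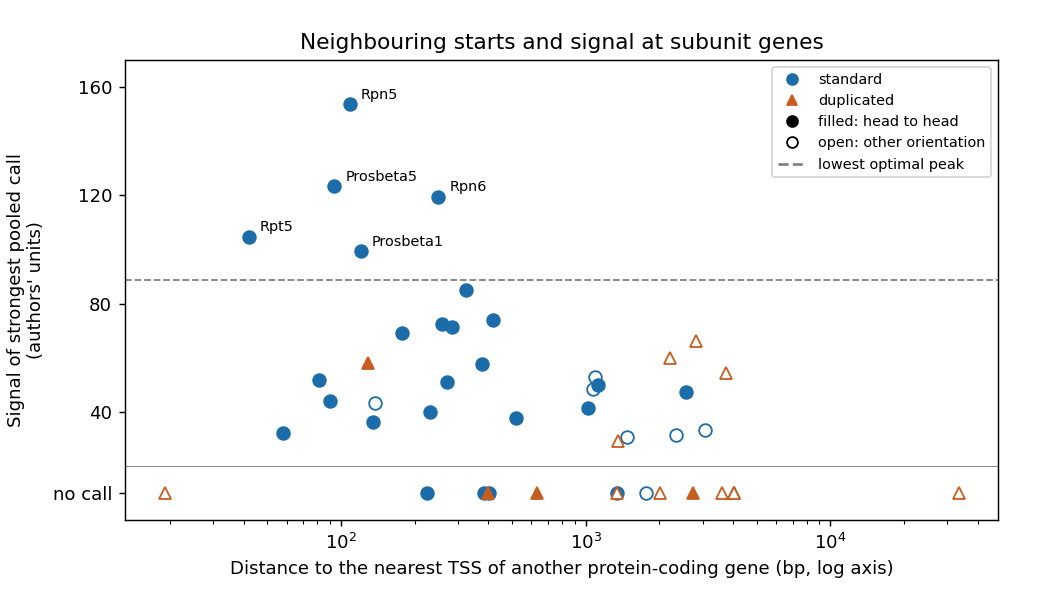
Signal of the strongest pooled call (authors' units) against the distance to the nearest TSS of another protein-coding gene (bp, log axis) for the 48 subunit genes. Circles are standard and triangles duplicated genes, filled symbols are head to head with the neighbour, and genes without a pooled call are placed at the bottom. The 5 named genes, above the dashed line of the lowest optimal signal, all have a neighbouring start within 250 bp.

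Promoter words were counted from 250 bp before to 50 bp after the start of each gene, on both strands. The DNA replication-related element (DRE), TATCGATA, which the factor Dref binds, was present in 12 of 32 standard promoters (37.5%) and 0 of 16 duplicated ones, against 9.36% of all protein-coding genes. Its part TATCGA was in 20 standard and 4 duplicated promoters (27.7% of all). GGTCACAC, called Motif 1, was in 5 standard and 0 duplicated promoters (7.70% of all). TGACNNNGC, a core of the antioxidant response element bound by Cnc with Maf-S, was in 5 standard promoters and 1 duplicated promoter (8.63% of all).

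The DRE genes were Prosalpha3, Prosalpha5, Prosalpha6, Prosbeta1, Prosbeta2, Prosbeta6, Rpn3, Rpn7, Rpn9, Rpn12, Rpn13 and Rpt5. An optimal peak was carried by 2 of these 12 (16.7%), Prosbeta1 and Rpt5, and by 3 of the 20 standard genes without the word (15.0%). Over all protein-coding genes the shares were 14.7% with and 8.11% without it. Within 50 bp of the strongest pooled summit, the DRE was found at 2 of the 32 members with a call, Rpn3 and Rpt3, and at 0 of the 5 optimal peaks. Among all 29995 pooled summits on the main arms it was found at 0.910%, and among the 1471 optimal summits at 3.33%.

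The gaps between starts are shown for 5 further head-to-head members to set these words against the calls. They are dm6 sequence along the subunit gene's strand, ending at the base before its start, with TATCGATA and TATCGA in either orientation in capitals. At Rpn2 the pooled summit lay inside the gap, 15 bp from the Slbp start, while its TATCGA words began at -47 and -27 bp, near the Rpn2 start. At Prosbeta2 a DRE stood near each end, and no pooled summit fell in the gap. Prosalpha6, an alpha-ring gene with a DRE from -16 bp, had a pooled signal of 36.4 at 54 bp. Prosbeta2R2 was the only one of the 3 duplicated head-to-head genes with a pooled call. Rpn3 is shown because a stretch of 72 bp occurs 2 times in its gap, with the starts of the copies 78 bp apart. The Rpn3 pooled call of 69.2 peaked outside the gap, 12 bp from the start of l(2)37Bb and in its 5′ UTR.
Rpn2 and Slbp, chr3R:29153267-29153523, strand +: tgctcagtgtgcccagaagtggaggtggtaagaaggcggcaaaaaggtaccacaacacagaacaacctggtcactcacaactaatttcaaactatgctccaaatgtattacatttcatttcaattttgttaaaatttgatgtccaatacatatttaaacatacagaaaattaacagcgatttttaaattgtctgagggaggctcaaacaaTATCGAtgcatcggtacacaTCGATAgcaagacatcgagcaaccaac
Prosbeta2 and mRpL39, chr3L:14999667-14999950, strand +: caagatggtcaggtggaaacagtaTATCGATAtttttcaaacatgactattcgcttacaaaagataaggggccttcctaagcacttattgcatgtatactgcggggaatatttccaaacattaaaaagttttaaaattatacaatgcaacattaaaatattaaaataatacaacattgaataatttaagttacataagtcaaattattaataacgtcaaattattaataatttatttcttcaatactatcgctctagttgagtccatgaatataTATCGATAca
Prosalpha6 and Npc1a, chr2L:10221217-10221350, strand +: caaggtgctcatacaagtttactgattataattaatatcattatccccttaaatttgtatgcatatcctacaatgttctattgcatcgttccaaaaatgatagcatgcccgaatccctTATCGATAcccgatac
Prosbeta2R2 and CG1116, chr3R:5219529-5219656, strand -: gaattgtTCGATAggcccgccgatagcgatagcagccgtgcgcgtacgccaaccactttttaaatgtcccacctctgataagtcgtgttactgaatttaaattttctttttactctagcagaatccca
Rpn3 and l(2)37Bb, chr2L:19051613-19051789, strand +: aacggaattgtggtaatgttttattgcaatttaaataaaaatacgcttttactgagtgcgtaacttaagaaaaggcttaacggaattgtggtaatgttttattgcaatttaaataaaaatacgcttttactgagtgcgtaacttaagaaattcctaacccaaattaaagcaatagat

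Replicate summits were not always at the same place. At Rpn3 the calls of replicates 1 and 2 lay at -45 and -6 bp, with signals of 31.5 and 26.6, and that of replicate 3 lay at -208 bp with 15.2. At Rpn2 replicates 1 and 3 lay at -225 and -232 bp and replicate 2 at -402 bp. The strongest replicate calls at Prosbeta2R2 lay at 305, -202 and -229 bp, and at Prosalpha6 at 63 and 210 bp, with none in replicate 3. The Rpn3 gap holds a repeat, and how the authors' alignment placed reads in it is not known from the labels.

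Other genes of the pathway were taken from a list of 22, of which 20 were in the annotation. An optimal peak was carried by 4 of the 20 (20%, interval 5.73 to 43.7), an interval that includes the 8.73% of all protein-coding genes. Hrd3, of the endoplasmic reticulum ubiquitin ligase complex, had a signal of 199.8 with 99.1, 67.9 and 31.4 in the replicates, and Ubqn, a ubiquilin that shuttles substrates to the proteasome, had 177 with 77.4, 76.9 and 41.3. Both had a top call in all 3 replicates, but the strongest summits were nearer to PTPMT1 and to dome. Ubi-p63E, a polyubiquitin gene, had 96.9 at 43 bp downstream of a TSS, with 21.4, 59.1 and 19.4 in the replicates, where replicate 2 stood far above the others. Pomp, the maturation factor of the core particle, had 89.3, just inside the optimal list, with its summit on the TSS. Its replicates had 41.0, 41.3 and 18.2, with replicate 3 the lowest.

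The remaining pathway genes were below the list. Cnc, the transcription factor known in flies to activate proteasome genes, had a pooled signal of 56.8 at its gene cnc, and its partner gene maf-S had 66.0. Keap1, whose product restrains Cnc, had 80.4. Sem1, the small lid subunit whose symbol the rule for members does not take in, had 39.7, and PI31, a proteasome regulator, had 39.98. A pooled call was present at 18 of the 20 genes (90%, interval 68.3 to 98.8), against 60.0% of all protein-coding genes. A call in all 3 replicates was present at 16 (80%, interval 56.3 to 94.3), against 36.8%. The absent ones in the pooled list were Pngl and Ubi-p5E.

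The members were spread over the arms, with 14 on 3R, 13 on 2R, 8 on 2L, 7 on 3L and 6 on X, and the 5 optimal peaks lay on 2R and 3R. Across members with calls in both libraries, the strongest signals had a Spearman's rho of 0.245 between replicates 1 and 2 (28 members), 0.472 between 1 and 3 (25) and 0.339 between 2 and 3 (24). These values describe agreement across genes of shared libraries, and are weak.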

How the data were processed

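The authors deposited narrowPeak lists on dm6 and dm3 for Neu2-GFP embryos, and the labels name a control. The signal value of each call and the summit offset (another measure, in bp) are the authors'. Not given in the sources used here: aligner, caller, versions and IDR cutoff. The dm3 lists and the control were not analysed here. Depth per library was unknown, so precision was judged from the spread between replicates.

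Genes came from Ensembl release 115 (BDGP annotation 6.54, dm6 coordinates) and sequence from RefSeq's Release 6 assembly. All calls and genes on the 6 main arms ended inside the assembly's arms. A few relaxed calls lay elsewhere and were not checked, with 29995 of 30000 pooled calls on these arms. Replicate calls were matched within 200 bp of a pooled summit, the strongest being taken. Counts were described beside all protein-coding genes, with Clopper-Pearson intervals and no p-values, since there was 1 group of 3 samples. The labels give the replicates as biological. Python 3.11.15, pandas 2.3.3 and scipy 1.17.1 were used, and the gene assignment was tested on simulated data.

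Named with replicate values were genes with an optimal peak, genes with a top call in at least 2 replicates, the next 10 by pooled signal, the 3 members on either side of the distance limit, and pathway genes with an optimal peak. Values of other genes were chosen after they were seen. Members, lists and words were chosen with earlier results of these data known. Alternatives were other windows, nearest-TSS assignment, gene 5′ ends, stricter peak sets, leaving out each replicate, and other matching distances.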

Additional observations from a re-analysis of the deposited data

How the results depend on the processing

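Of 62 recomputed values, 41 stayed within 1.5 times the main count or within the replicate spread. That tally overstates stability, since the optimal-peak counts of standard genes repeat those of all members, and most of those of duplicated genes could not change. The count of 5 subunit genes with an optimal peak, all standard, stayed at 5 with a 500 bp window or gene 5′ ends. It was 6 at 2000 bp, which added Rpn12. Of all protein-coding genes, 7.36% had a peak at 500 bp, 7.77% for gene 5′ ends and 11.0% at 2000 bp. Among members and standard genes alike the count was 2 for nearest TSSs only (6.22% of all protein-coding genes). It was 3 in the upper part of the optimal list by signal (Rpn5, Rpn6 and Prosbeta5), against 4.85% of all protein-coding genes. Only Rpn5 was left when a top call in all 3 replicates was required, against 4.12% of all protein-coding genes. Leaving out a replicate gave 1 to 3, which follows in part from requiring top calls in both others. The duplicated genes had 0 in every alternative, but only the 2000 bp window could have raised that count. The other settings kept a subset of the same peaks or starts. Pathway genes had 2 in place of 4 in the upper part of the list, 2 when matched in all 3 replicates, and 2 to 3 without a replicate. The 23 members with a call in all 3 replicates became 15 at 500 bp, 31 at 2000 bp, and 24 to 28 without a replicate. The 4 members with top calls in at least 2 replicates became 7 when the top calls numbered 2942, and 1 to 3 without a replicate. For both of these replicate-call counts, shares over all protein-coding genes at the changed settings are not given here. The relative signal of Rpn5 was 1.15 when summits had to match within 100 bp, where a weaker call of replicate 2 replaced the one 107 bp away. That of Rpt5 was 0.792 with matching within 500 bp, against 1.03 within 200 bp. At Prosbeta5, Rpn6 and Prosbeta1 neither distance changed the value. The median pooled signal of 52.4 ranged from 51.9 to 55.3. No paired analysis was possible because there was 1 group of samples.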
